A study of Mus musculus with 6 samples.

Results

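The 36 genes described here encode MYC and proteins that make ribosomes, with a few other MYC target genes. They were chosen by name from a list of nucleolar, ribosomal RNA processing, RNA polymerase I and other MYC target genes. All 36 were in the count table of 12579 genes, and all 36 were among the 12576 genes tested. RNA was sequenced from cells of mouse fetal livers at stage E14.5, which the labels call haematopoietic stem and progenitor cells. There were 3 libraries of genotype Prl2+/+ and 3 of genotype Prl2-/-. The sources used here do not give strain, sex or the kind of Prl2 allele. Nothing in the labels ties a library to an embryo of its own, so the p-values cover only the differences among these 6 libraries, some of which may be technical. Values of single libraries are given in the order of replicates 1, 2 and 3 of a genotype. PRL2 is a protein tyrosine phosphatase encoded by Ptp4a2, and the comparison asked how its loss changes transcription in progenitors.

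MYC is a transcription factor that binds DNA as a pair with MAX and raises the output of genes for growth. Much of that output serves the nucleolus, where RNA polymerase I copies the ribosomal DNA and small nucleolar ribonucleoproteins (snoRNPs) modify the transcript. A small subunit processome and a chain of large subunit assembly factors then cut and fold it into ribosomal subunits. Dividing blood progenitors of the fetal liver make ribosomes at a high rate.

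Of the 36 genes, 29 could be matched to RefSeq promoter windows on GRCm38.p6, each running from 250 bases before to 50 after an annotated gene start. Fbl, Myc, Npm1, Rrp12, Bop1, Rrs1 and Srm were not matched. The windows were searched for the E-box CACGTG, the sequence that MYC and MAX bind, which reads the same on both strands. It was present for 7 of the 29 genes (24.1%), against 11.8% of the 9647 tested genes with a window and 8.09% of all 27025 genes with one. With only the bases before the start counted, it was present for 3 of 29 (10.3%) against 9.93% of the tested genes. The sequences below show these E-boxes in capitals, 5′ to 3′ on the strand of the gene. Cdk4, the cyclin-dependent kinase of early G1, had 4 of them, whose first bases lie 172, 118, 98 and 11 bases before the start. Nme1 has 2 annotated starts and an E-box before each. For Pes1, Mybbp1a, Wdr43 and Utp20 the E-box lay after the start.
Cdk4, chr10:127063335-127063534, plus strand: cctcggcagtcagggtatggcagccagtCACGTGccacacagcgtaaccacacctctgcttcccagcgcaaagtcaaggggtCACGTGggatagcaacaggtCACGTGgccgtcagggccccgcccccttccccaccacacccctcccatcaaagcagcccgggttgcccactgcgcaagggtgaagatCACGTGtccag
Nop2, chr6:125131803-125131862, plus strand: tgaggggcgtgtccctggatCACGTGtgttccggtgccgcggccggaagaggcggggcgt
Nme1, upstream start, chr11:93968273-93968302, minus strand: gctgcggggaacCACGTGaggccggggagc
Nme1, downstream start, chr11:93968037-93968066, minus strand: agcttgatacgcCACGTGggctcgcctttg
Pes1, chr11:3963965-3963994, plus strand: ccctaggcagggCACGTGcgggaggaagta
Mybbp1a, chr11:72441347-72441376, plus strand: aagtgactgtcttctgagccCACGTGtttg
Wdr43, chr17:71616220-71616249, plus strand: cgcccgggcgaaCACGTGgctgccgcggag
Utp20, chr10:88826765-88826794, minus strand: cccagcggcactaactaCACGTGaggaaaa

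A match of these letters is a description and not a measured binding site. The related E-box CACGCG, searched with its reverse complement CGCGTG, was present for 8 of 29 genes (27.6%) and for 19.9% of the tested genes. It was found in the windows of Ddx21, Mybbp1a, Noc2l, Nolc1, Nop16, Odc1, Pes1 and Ppan.

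Libraries held 25965111 to 37026282 counts. Ptp4a2 stood at 307, 298 and 315 CPM (counts over the library total, corrected by TMM factors) across Prl2+/+ and at 1.23, 1.28 and 1.03 CPM across Prl2-/-, so every library matched its genotype label. Xist, a transcript of female cells, differed between libraries of 1 genotype. It had 239, 266 and 0 counts across Prl2+/+ and 0, 0 and 284 counts across Prl2-/-. Progenitor genes were present in every library, among them Kit, the stem cell factor receptor, at 188 to 247 CPM. Levels within this list of 12 markers differed widely. Mpo was the most abundant, at 9801 to 13695 CPM. Mecom was the scarcest, at 0.135 to 0.683 CPM, which is only 5 to 21 counts. Hlf came next above Mecom, at 4.48 to 7.61 CPM. Libraries of 1 genotype differed widely in hepatoblast markers: 19 of 20 such genes were measured, none of them at 0 throughout, and their summed level was 5370, 1054 and 188 CPM across Prl2+/+ and 79.8, 3009 and 405 CPM across Prl2-/-. Prl2+/+ replicate 1 and Prl2-/- replicate 1 therefore stood at opposite ends. In such bulk libraries, fewer cells of a type and less RNA per cell cannot be told apart.

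Most of the 36 genes were abundant. Levels between genes are compared as RPKM, CPM divided by the exon length in kilobases, averaged over the 6 libraries. The median of the 36 was 80.0 RPKM against 9.82 RPKM over all genes tested, and 17 of the 36 (47.2%) lay in the top 10% of tested genes. The highest was Npm1, which encodes nucleophosmin, an abundant nucleolar chaperone, at 505 to 597 RPKM. Next came Srm, spermidine synthase, at 384 to 474 RPKM, and Cdk4 at 367 to 464 RPKM. Nme1, a nucleoside diphosphate kinase, followed at 337 to 369 RPKM. The ranges of Srm and Cdk4 overlapped, and so did those of Cdk4 and Nme1, whereas Npm1 lay above all others in every library. Odc1, ornithine decarboxylase, the first enzyme of polyamine synthesis, ranked 5 at 178 to 225 RPKM, and its range overlapped none of the other 35.

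**Figure D1:**
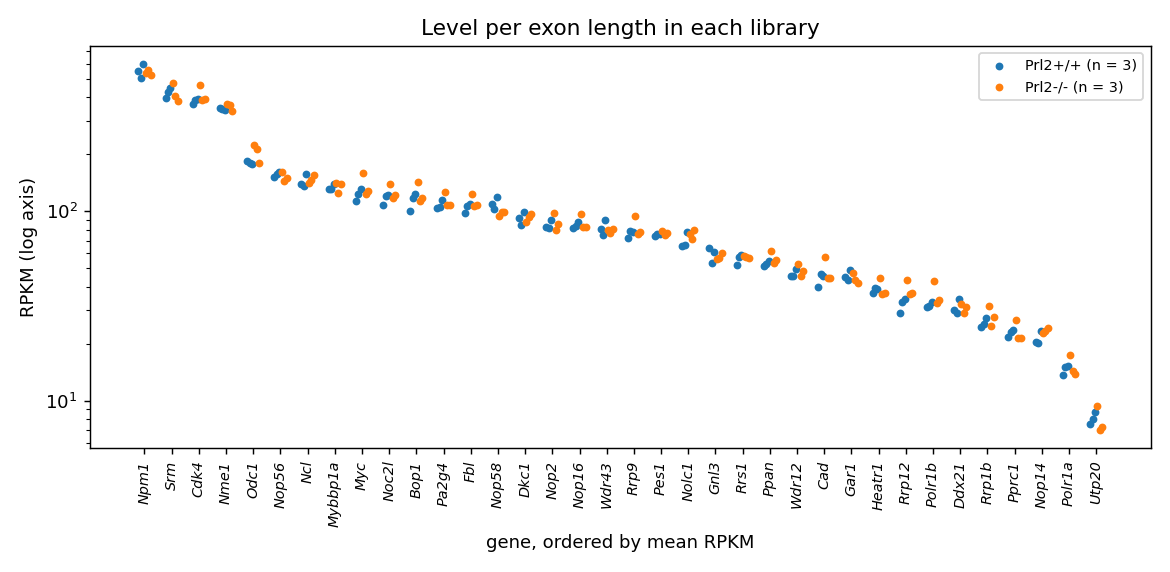
Level of each of the 36 genes in RPKM (log axis), one point for each library, with genes ordered by mean level and Prl2+/+ (n = 3) and Prl2-/- (n = 3) in different colours. Levels run from Npm1 at 505 to 597 RPKM down to Utp20 at 7.02 to 9.31 RPKM, and differences between genes are far larger than those between libraries.

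Myc itself stood at 113 to 159 RPKM, rank 9 of the 36. Its neighbours in the order, Mybbp1a at 125 to 141 RPKM and Noc2l at 108 to 139 RPKM, overlapped its range. At the low end were Utp20, a large scaffold of the small subunit processome, at 7.02 to 9.31 RPKM, below the median of all genes tested, and Polr1a, the largest subunit of RNA polymerase I, at 13.6 to 17.3 RPKM. Nop14 and Pprc1 followed at 20.2 to 24.1 and 21.5 to 26.6 RPKM, ranges that overlapped. The order depends on the exon length in the table. Ncl, which encodes nucleolin, had the most counts of the 36 at 1127 to 1303 CPM, but its listed exon length of 8257 bases set it at rank 7 by RPKM, at 136 to 158 RPKM. Of the 10 highest by RPKM, 9 were also among the 10 highest by CPM.

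No difference between the genotypes was detectable in any of the 36 genes. None passed an adjusted p of 0.05 in the edgeR quasi-likelihood test with Benjamini-Hochberg adjustment over all genes (smallest adjusted p 0.899), and 2 of 36 had an unadjusted p under 0.05 (5.56% against 4.6% of all genes). Over all genes, 0.0398% were called, 5 of 12576. DESeq2, limma-voom and the edgeR likelihood ratio test called 0 of the 36 too, with 3, 2 and 1 at an unadjusted p under 0.05. The intervals were narrow: the 95% confidence interval of the log2 fold change, Prl2-/- minus Prl2+/+, stayed within a 1.5-fold change in either direction for 36 of 36. The bound farthest above 0 was 0.50 and the bound farthest below 0 was -0.34 on the log2 scale. Without Prl2+/+ replicate 2, Prl2+/+ replicate 3 or Prl2-/- replicate 3, the interval stayed within 1.5-fold for 35 of 36. Without any other single library it did so for 36 of 36.

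The estimates leaned slightly upward. Of the 36, 27 were above 0 and 9 below (25% below, against 50.2% of all genes tested), with a median log2 fold change of 0.050 against -0.00067 over all genes tested. Single estimates ran from -0.18 for Nop58 to 0.27 for Rrp12. Their median distance from 0 was 0.058, against 0.10 over all genes. The median SD between libraries of 1 genotype was 0.11 log2 CPM for these genes and 0.14 for all genes. The SD of the mean log2 CPM of the 36 between libraries of 1 genotype was 0.083. Single libraries moved these counts: without Prl2-/- replicate 1 the median was 0.0099 and 15 estimates were below 0, and without Prl2+/+ replicate 3 the median was 0.085 and 4 were below 0.

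**Figure D2:**
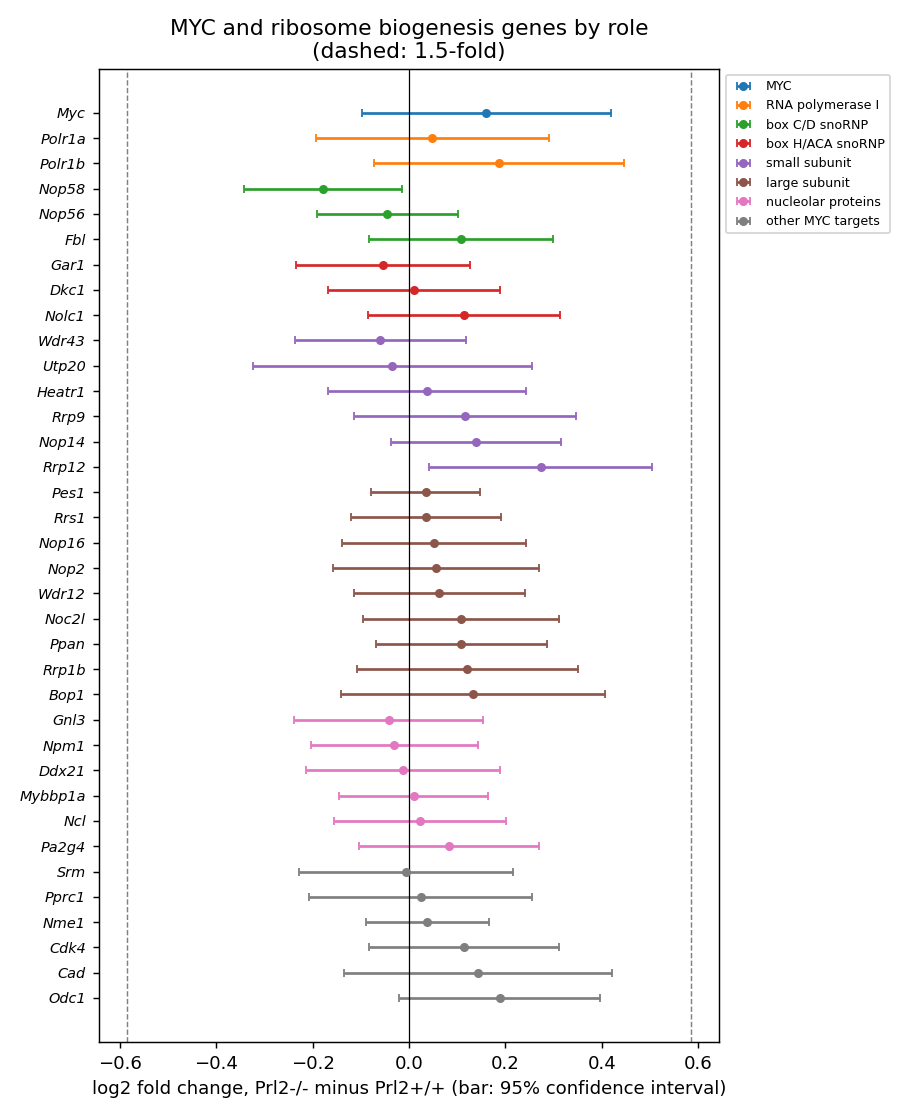
Log2 fold change of each of the 36 genes, Prl2-/- minus Prl2+/+ (n = 3 each), as points with 95% confidence intervals as bars, coloured by role; dashed lines mark 1.5-fold. All 36 intervals lie inside the dashed lines, and 2 of them, those of Rrp12 and Nop58, leave out 0 before adjustment.

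Myc was not detectably different. The gene spans 61985341 to 61990361 on the plus strand of chromosome 15. It had 272, 296 and 315 CPM across Prl2+/+ and 381, 297 and 308 CPM across Prl2-/-. Prl2-/- replicate 1 was the highest and Prl2+/+ replicate 1 the lowest, while the other 2 Prl2-/- libraries lay inside the Prl2+/+ range. The log2 fold change was 0.16 ± 0.11 (SE; 95% confidence interval -0.098 to 0.42; edgeR adjusted p = 0.899), and 0.041 without Prl2-/- replicate 1. Without that library the estimates of Polr1b, Cad, Rrp9 and Bop1 were likewise smaller, at 0.055, 0.011, 0.0090 and 0.025. Of 12 other genes of the MYC network (relatives, partners and antagonists), all were tested and 0 were called, with 6 estimates above and 6 below 0. The 2 with the smallest p were Max, the partner of MYC, at -0.10 ± 0.068 (SE), and Mxd1, which competes with MYC for MAX, at -0.18 ± 0.13 (edgeR adjusted p = 0.899 for both). Mycn and Mycl, relatives of Myc counted among the 12 and named here for their roles and not by the rule for named genes, were much less abundant than Myc in each library, Mycn at 14.0 to 23.7 CPM and Mycl at 0.873 to 4.26 CPM.

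Among the genes of RNA polymerase I, Polr1b, its second largest subunit, had 124, 127 and 133 CPM across Prl2+/+ and 171, 131 and 135 CPM across Prl2-/-. Prl2-/- replicate 1 was again the highest, replicate 3 lay just above the Prl2+/+ range, and replicate 2 lay inside it. The log2 fold change was 0.19 ± 0.11 (SE; 95% confidence interval -0.072 to 0.45; edgeR adjusted p = 0.899). For Polr1a it was 0.048 ± 0.10 (edgeR adjusted p = 0.928). Of 18 other genes of the RNA polymerase I machinery, 0 were called and 14 were above 0. Those with the smallest p were the subunit genes Twistnb at 0.14 ± 0.065 and Polr1e at 0.15 ± 0.074 (SE; edgeR adjusted p = 0.899 for both). Of 11 genes of RNA polymerase III, which makes the 5S ribosomal RNA and transfer RNAs, 0 were called and 7 were above 0. Crcp at -0.22 ± 0.062 and Polr3f at -0.23 ± 0.086 had the smallest p of these (SE; edgeR adjusted p = 0.899 for both).

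The core proteins of the box C/D snoRNPs, which methylate ribosomal RNA, had estimates of both signs. Nop58 was the 1 gene of the 36 whose Prl2-/- libraries all lay below the Prl2+/+ libraries. The gene spans 59685006 to 59711510 on the plus strand of chromosome 1 and had 216, 202 and 236 CPM across Prl2+/+ and 187, 195 and 196 CPM across Prl2-/-. The log2 fold change was -0.18 ± 0.069 (SE; 95% confidence interval -0.34 to -0.014; edgeR adjusted p = 0.899). Its partner Nop56 overlapped between the genotypes, at 287, 298 and 305 CPM against 307, 273 and 283 CPM. The log2 fold change of Nop56 was -0.045 ± 0.061 (SE; 95% confidence interval -0.19 to 0.10; edgeR adjusted p = 0.908). Fbl, the methyltransferase fibrillarin, was at 0.11 ± 0.080 (edgeR adjusted p = 0.899). NOP58, NOP56 and fibrillarin sit in the same particle, and the estimate for Fbl was above 0 while the other 2 were below it.

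In the box H/ACA snoRNPs, which convert uridine to pseudouridine, Dkc1, the gene of the enzyme dyskerin, was at 0.011 ± 0.075 and Gar1 at -0.054 ± 0.076 (SE; edgeR adjusted p of 0.980 and 0.908). Nolc1, a snoRNP chaperone of the nucleolus, was at 0.11 ± 0.083 (edgeR adjusted p = 0.899). Of 13 other genes for snoRNP proteins and their assembly, 0 were called and 12 were above 0, with Pih1d1 at 0.11 ± 0.067 and Shq1 at 0.17 ± 0.10 (SE; edgeR adjusted p = 0.899 for both) as those of smallest p.

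Rrp12, an export and processing factor of the small subunit, had the smallest p of the 36. The gene spans 41862851 to 41896153 on the minus strand of chromosome 19 and had 125, 143 and 148 CPM across Prl2+/+ and 187, 157 and 159 CPM across Prl2-/-, so the 3 Prl2-/- libraries lay above all Prl2+/+ libraries. The log2 fold change was 0.27 ± 0.097 (SE; 95% confidence interval 0.042 to 0.50; edgeR adjusted p = 0.899), and 287 genes had a smaller p. Rrp12 and Nop58 were the 2 genes of 36 (5.56%) whose genotypes did not overlap, against 11.1% of all genes tested.

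The other small subunit factors overlapped between the genotypes. Nop14, a processome subunit, had 54.9, 54.5 and 62.7 CPM across Prl2+/+ and 61.5, 62.7 and 65.2 CPM across Prl2-/-. Its log2 fold change was 0.14 ± 0.074 (SE; 95% confidence interval -0.038 to 0.32; edgeR adjusted p = 0.899). Utp20, the gene of lowest RPKM, had 66.2, 70.8 and 76.5 CPM against 82.2, 62.0 and 64.3 CPM, with Prl2-/- replicates at both extremes. The log2 fold change of Utp20 was -0.034 ± 0.12 (SE; 95% confidence interval -0.32 to 0.26; edgeR adjusted p = 0.960). Wdr43, a processome subunit, had 279, 259 and 310 CPM against 273, 263 and 277 CPM, and all 3 Prl2-/- libraries lay inside the Prl2+/+ range. The log2 fold change of Wdr43 was -0.060 ± 0.074 (SE; 95% confidence interval -0.24 to 0.12; edgeR adjusted p = 0.904). Heatr1 and Rrp9, 2 further subunits, were at 0.036 and 0.12. Of 40 other genes of the small subunit pathway, 0 were called and 28 were above 0, with Riok1, a kinase of late maturation, at -0.14 ± 0.051 and Nat10, an RNA acetyltransferase, at 0.20 ± 0.090 (SE; edgeR adjusted p = 0.899 for both) as those of smallest p.

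The 9 large subunit factors had small estimates above 0, of which 3 turned below 0 when 1 library was left out: Nop2 at -0.031 and Nop16 at -0.030 without Prl2-/- replicate 1, and Rrs1 at -0.0175 without Prl2+/+ replicate 1. With all libraries they ran from 0.034 for Pes1 to 0.13 for Bop1, with a median of 0.063, and 0 of 9 were called. PES1, BOP1 and WDR12 form a complex needed to process the large subunit RNA. Pes1 was the steadiest of the 36, at 215, 220 and 220 CPM across Prl2+/+ and 229, 219 and 222 CPM across Prl2-/-, a highest-to-lowest ratio of 1.07. Bop1 varied more, at 247, 290 and 304 CPM against 352, 280 and 290 CPM, a ratio of 1.43. Wdr12 was at 0.063 ± 0.074 (SE; edgeR adjusted p = 0.904). Nop2, an RNA methyltransferase, Nop16, Rrs1, Rrp1b, Ppan and Noc2l, which take part in large subunit assembly, were at 0.056, 0.052, 0.035, 0.12, 0.11 and 0.11 on the log2 fold change scale. Of 41 other large subunit genes, 0 were called and 29 were above 0, with Wdr74 at 0.23 ± 0.12 and Wdr18 at 0.19 ± 0.10 (SE; edgeR adjusted p = 0.899 for both) as those of smallest p.

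The abundant nucleolar proteins lay close to 0. Npm1 had 947, 868 and 1026 CPM across Prl2+/+ and 919, 960 and 903 CPM across Prl2-/-. All 3 Prl2-/- libraries lay inside the Prl2+/+ range. The log2 fold change was -0.030 ± 0.073 (SE; 95% confidence interval -0.20 to 0.14; edgeR adjusted p = 0.937). Ncl was at 0.023 ± 0.075 (edgeR adjusted p = 0.957). Mybbp1a, a nucleolar protein that binds MYB, Gnl3, the GTP-binding protein nucleostemin, Ddx21, an RNA helicase, and Pa2g4, an ErbB3-binding protein of pre-ribosomes, were at 0.0099, -0.042, -0.012 and 0.084.

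Among the remaining MYC targets, Odc1 had the smallest p. It had 469, 460 and 453 CPM across Prl2+/+ and 573, 543 and 458 CPM across Prl2-/-, with the last inside the Prl2+/+ range. Its log2 fold change was 0.19 ± 0.087 (SE; 95% confidence interval -0.020 to 0.40; edgeR adjusted p = 0.899). Srm, which acts further along the same polyamine pathway, was at -0.0065 ± 0.093 (edgeR adjusted p = 0.991). Cad, the enzyme that starts pyrimidine synthesis, Cdk4, Nme1 and Pprc1, a transcriptional coactivator, were at 0.14, 0.11, 0.038 and 0.024. Of 35 other growth and metabolic genes that MYC activates, 0 were called and 29 were above 0, with Impdh2 of guanine nucleotide synthesis at 0.19 ± 0.10 and Ccnd2, a D-type cyclin, at 0.22 ± 0.13 (SE; edgeR adjusted p = 0.899 for both) as those of smallest p.

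Beyond the 36, 195 other genes of the pathway were tested in 9 lists. None was called, 140 were above 0 and 55 below, 3 had an unadjusted p under 0.05, and the median log2 fold change was 0.046. Over all genes tested, 50.2% were below 0. Prl2-/- replicate 1 had the highest mean log2 CPM in the RNA polymerase I, snoRNP, small subunit, large subunit, exosome and metabolic lists. In the MYC network, RNA polymerase III and snoRNA host lists a Prl2+/+ library was highest. The small subunit list had 6.58, 6.60 and 6.69 across Prl2+/+ and 6.73, 6.63 and 6.63 across Prl2-/-. Of 15 exosome and exonuclease genes, which trim ribosomal RNA precursors, 11 were above 0, with Xrn2 at -0.10 ± 0.046 and Exosc5 at 0.23 ± 0.11. Of 10 snoRNA host genes without a protein product of known role, 4 were above 0, with Snhg5 at -0.33 ± 0.16 and Snhg7 at 0.41 ± 0.24 (SE; edgeR adjusted p = 0.899 for these 4 genes).

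Prl2-/- replicate 1 was the highest of the 6 libraries for 25 of them (69.4%), while it was the highest for 26% of all genes tested. Prl2+/+ replicate 1 was the lowest for 17 (47.2%), against 22.9% of all genes. Compared with the Prl2+/+ range, Prl2-/- replicate 1 lay above it for 25 genes, within it for 10 and below it for 1. Prl2-/- replicate 2 lay above it for 4, within it for 25 and below it for 7, and Prl2-/- replicate 3 above it for 7, within it for 22 and below it for 7. Thus 2 of the 3 Prl2-/- libraries were inside the Prl2+/+ range for most of these genes. For no gene of the 36 was the highest library more than 1.49 times the lowest, a ratio reached by Rrp12.

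**Figure D3:**
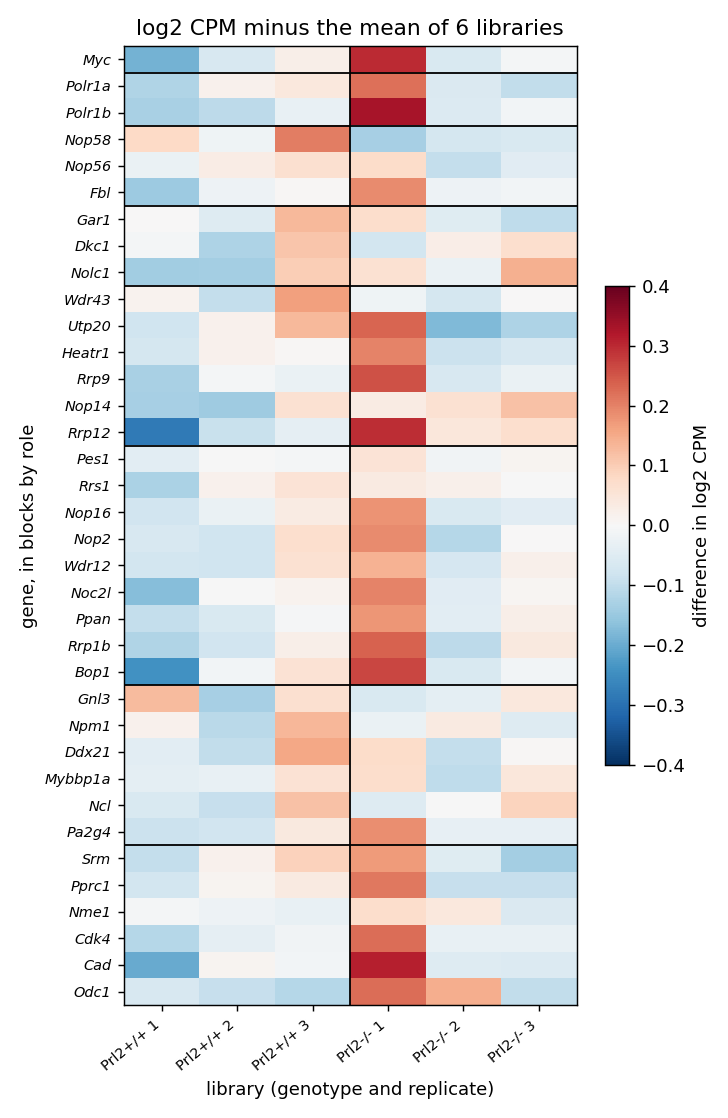
Difference of log2 CPM from the mean of the 6 libraries for each of the 36 genes (rows, in blocks by role) in each library (columns); red is above and blue below the mean. The column of Prl2-/- replicate 1 holds the highest value of 25 genes, and that of Prl2+/+ replicate 3 the highest of 8.

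Prl2+/+ replicate 3 was the highest library for 8 of the 36 genes (22.2%), against 15.6% of all genes tested. These 8 were Nop58, Gar1, Dkc1, Wdr43, Rrs1, Npm1, Ncl and Ddx21. Introns of ribosome genes often carry small nucleolar RNAs. In the GENCODE M21 annotation, 8 of the 36 genes (22.2%) held at least 1 snoRNA gene on the same strand, 22 in all, against 1.93% of the tested genes with a symbol there. These hosts were Nop56 with 5, Nop58 with 4, Ncl, Wdr43 and Gnl3 with 3 each, Ppan with 2, and Dkc1 and Odc1 with 1 each. Prl2+/+ replicate 3 was the highest library for 4 of the 8 hosts, Prl2-/- replicate 1 for 3 and Prl2+/+ replicate 1 for 1. These groupings were made after the values were seen and were not tested.

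The mean level of the 36 genes was 7.66, 7.69 and 7.79 log2 CPM across Prl2+/+ and 7.88, 7.70 and 7.73 across Prl2-/-. Together they took 0.967%, 0.965% and 1.05% of counts in Prl2+/+ and 1.09%, 1.00% and 1.00% in Prl2-/-. Hepatoblast markers ran nearly the other way, at 6.55, 3.96 and 1.18 mean log2 CPM across Prl2+/+ and -0.44, 5.49 and 2.28 across Prl2-/-. The library lowest in the 36 genes was the richest in hepatoblast markers, and the highest was the poorest. Hepatoblast markers took 0.00797% to 0.541% of counts. With their level as a covariate the median log2 fold change of the 36 genes was 0.015, 14 estimates were below 0, and 0 genes were called. A further fit omitted both hepatoblast-rich libraries, which were replicate 1 of Prl2+/+ and replicate 2 of Prl2-/-. Its median was 0.065, 9 estimates were below 0, and 0 of the 36 were called. With all libraries and no covariate the median was 0.050 and 9 were below 0, so these fits moved the median in opposite directions.

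B lineage markers followed the 36 genes at the top end, at 2.87, 2.94 and 4.33 mean log2 CPM across Prl2+/+ and 4.59, 2.12 and 3.55 across Prl2-/-. All 11 were measured, with a summed level of 124 to 357 CPM in Prl2+/+ and 80.3 to 436 CPM in Prl2-/-. Progenitor markers also ran from Prl2+/+ replicate 1, the lowest at 6.33 mean log2 CPM, to Prl2-/- replicate 1, the highest at 6.58. All 12 were measured, with summed levels of 11159 to 14267 CPM in Prl2+/+ and 13171 to 15176 CPM in Prl2-/-. Most of each sum was Mpo, at 9801 to 12770 CPM in Prl2+/+ and 11690 to 13695 CPM in Prl2-/-. Flt3, Myb, Meis1, Mpo and Hlf were highest in Prl2-/- replicate 1, whereas Gata2 and Spi1 were lowest there. Proliferation genes, all 20 measured, had a narrower range of 8.50 to 8.58 mean log2 CPM, with Prl2-/- replicate 1 inside the Prl2+/+ range at 8.54. Mki67, a gene of this list, was lowest in Prl2-/- replicate 1, at 97.8 CPM against 123 to 136 CPM across Prl2+/+. Erythroid markers ranged from 4.15 to 5.96 mean log2 CPM, with 16 of 18 measured and summed levels of 378 to 1033 CPM in Prl2+/+ and 398 to 1386 CPM in Prl2-/-. Megakaryocyte markers were highest in Prl2-/- replicate 1, at 4.62, 4.11 and 3.95 mean log2 CPM across Prl2+/+ and 4.87, 4.61 and 4.31 across Prl2-/-. All 13 were measured and had estimates above 0, with 0 called, and their summed level was 377 to 565 CPM in Prl2+/+ and 435 to 657 CPM in Prl2-/-. Neutrophil markers, 11 of 12 measured, were lowest in Prl2-/- replicate 1 by summed level, at 9607 CPM, with 12137 to 13798 CPM in Prl2+/+ and up to 17286 CPM in Prl2-/-. By mean log2 CPM they were instead lowest in Prl2-/- replicate 2, at 8.52, 8.44 and 9.23 across Prl2+/+ and 8.76, 8.24 and 9.31 across Prl2-/-. Macrophage markers, all 12 measured, had summed levels of 533 to 693 CPM in Prl2+/+ and 586 to 622 CPM in Prl2-/-. The part of hepatoblast, B lineage, progenitor, erythroid, megakaryocyte, neutrophil and macrophage cells in the levels of the 36 genes was not tested. The hepatoblast covariate cannot separate hepatoblasts from other cells that varied across the same 6 libraries.

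**Figure D4:**
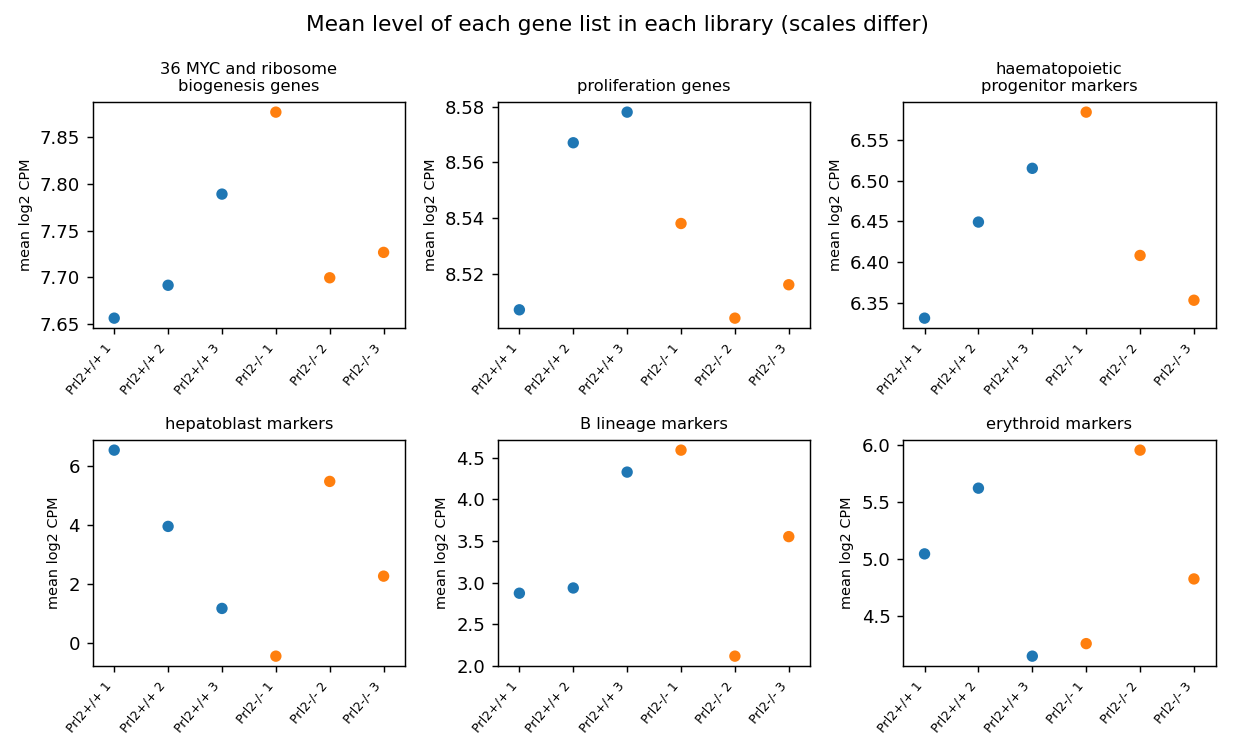
Mean log2 CPM of the 36 genes and of 5 marker lists in each library, Prl2+/+ in blue and Prl2-/- in orange, with a separate scale in each panel. Prl2-/- replicate 1 is the highest library for the 36 genes at 7.88 and the lowest for hepatoblast markers at -0.44.

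The 36 genes lay on 17 chromosomes, with at most 4 on any of them. Only Noc2l and Srm were on chromosome 4, which carries Ptp4a2, and their log2 fold changes were 0.11 and -0.0065. Counts of 17 of the 36 are uncertain to a degree because their exons overlap those of another gene in GENCODE M21: 16 overlap a gene on the opposite strand, which libraries without a strand mark cannot separate, and Nme1 overlaps the readthrough gene Gm20390. Npm1 and Odc1 have processed copies in the mouse genome, and their counts are uncertain for that reason.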

How the data were processed

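The deposited file gives whole-number counts per gene, which its header calls raw. Per the submitters' processing notes STAR aligned the reads and featureCounts counted them; tool versions, genome build and treatment of multi-mapping reads are not stated there. Per the labels' protocols, cDNA came from a low-input template-switching kit and libraries from tagmentation, which keeps no strand. RPKM was computed from CPM and the exon lengths that the authors deposited beside the counts. Of the 36 genes, 24 had a start or end within 5 bp of GENCODE M21, so positions are given on GRCm38.

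Counts were tested with edgeR 4.0.16 in R 4.3.3: filterByExpr, TMM factors, quasi-likelihood F test over all 6 libraries with no covariate, and Benjamini-Hochberg adjustment over 12576 genes with a threshold of 0.05. Each SE was derived from the estimate and its F value. Log2 CPM used a prior count of 2. The common coefficient of biological variation came to 0.264. The workflow was tested on simulated counts. The settings varied were scaling, filters, the tool (DESeq2 1.42.0, limma-voom of limma 3.58.1), the likelihood ratio test, robust fitting, covariates, the replicate block and left-out libraries. The 36 genes and all lists were chosen with earlier results of these data known. Genes with full statistics are Myc, the 6 of smallest p, those of highest and lowest RPKM and those next to the median p; of each pathway list the 2 of smallest p are named. Other genes are named for their roles.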

Additional observations from a re-analysis of the deposited data

How the results depend on the processing

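Of the 36 genes, 0 were called under each of 19 alternatives, and so were 0 of the 195 other pathway genes. Over all genes, against 5 calls, DESeq2 gave 36, the likelihood ratio test 21, the replicate block 1, the Xist covariate 3, and the omission of Prl2+/+ replicate 1 with Prl2-/- replicate 2 gave 1. Leaving out 1 library gave 3 to 4 calls, with 3 without Prl2+/+ replicate 1 or 2 or Prl2-/- replicate 1 or 3. It gave a median log2 fold change of the 36 of 0.0099 (without Prl2-/- replicate 1) to 0.091 (without Prl2-/- replicate 2), and 4 (without Prl2+/+ replicate 3) to 15 (without Prl2-/- replicate 1) estimates below 0. With the hepatoblast covariate the median was 0.015 and 14 were below 0. Without both hepatoblast-rich libraries the median was 0.065 and 9 were below 0. With the Xist covariate the median was 0.023 and 12 were below 0. An E-box was present for 7 genes in the whole window and for 3 in its part before the start, which holds fewer bases. The labels give no pairing, and the numbers were not taken as pairs. Each gene was also set as its deviation from the mean of its genotype and correlated across genes between libraries. Same-numbered libraries of the 2 genotypes gave -0.638, 0.209 and 0.174. With 3 libraries per genotype such deviations are tied to each other, so these correlations cannot show whether equal numbers were pairs. Differently numbered libraries reached 0.745 (Prl2+/+ replicate 3 with Prl2-/- replicate 1) and 0.725 (Prl2+/+ replicate 1 with Prl2-/- replicate 2). The lowest value was -0.813, for Prl2+/+ replicate 3 with Prl2-/- replicate 2. The replicate block left 0 of the 36 called.

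Estimates of 21 genes kept their sign throughout, and 15, all within 0.060 of 0, changed it in some fits. With 1 library left out, the log2 fold change ran from -0.059 to 0.11 for Polr1a, -0.049 to 0.072 for Dkc1, -0.17 to 0.041 for Utp20, -0.061 to 0.087 for Heatr1, -0.12 to 0.011 for Wdr43, -0.031 to 0.12 for Nop2, -0.030 to 0.094 for Nop16 and -0.0175 to 0.071 for Rrs1. It ran from -0.020 to 0.090 for Ncl, -0.092 to 0.031 for Npm1, -0.022 to 0.061 for Mybbp1a, -0.12 to 0.013 for Gnl3, -0.065 to 0.067 for Ddx21, -0.099 to 0.057 for Srm and -0.085 to 0.076 for Pprc1. With the hepatoblast covariate it was -0.011 for Polr1a, -0.015 for Heatr1, -0.0056 for Nop2, -0.027 for Mybbp1a and -0.035 for Pprc1. With the Xist covariate it was -0.0018 for Polr1a, -0.0028 for Dkc1 and -0.017 for Pprc1. Without both hepatoblast-rich libraries it was -0.00043 for Dkc1, -0.017 for Rrs1, 0.024 for Gnl3 and 0.0073 for Ddx21. With upper-quartile scaling it was 8.6e-05 for Srm. The cause of these changes was not tested. The stated intervals hold for single genes and are not adjusted over all genes tested. With 3 libraries per genotype at this depth and spread, they do not give the size of difference that could be called.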
